A study of Mus musculus with 15 samples.

Results

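The calgranulin genes S100a8 and S100a9 and 8 genes for neutrophil surface or secreted proteins (Csf3r, Trem1, Clec4d, Clec4e, Fpr1, Fpr2, Retnlg and Cd177) were followed across 15 arrays of mouse colon mucosa. They were taken by name: every non-control probe whose gene name in the scanner files is one of these 10 symbols, which gave 12 probes of the 56504 kept. Of the 10 genes, 6 had a probe well above background on at least 5 arrays and entered the fit, among 22012 genes in all. Clec4d passed on 3 arrays, and Clec4e, Fpr1 and Retnlg passed on none.

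The arrays compare 3 groups of 5 female Balb/cJ mice, 1 mouse per array. The filgotinib group received 4% dextran sodium sulfate (DSS) in the drinking water, in 3 cycles of 4 days separated by 3 days of plain water, and filgotinib, an inhibitor that prefers the kinase JAK1, gavaged daily at 30 mg/kg. The DSS vehicle group received the same DSS cycles with the vehicle of filgotinib. The water group received plain drinking water; its compound label reads vehicle control, while the design text lists no dosing for it, so whether it was gavaged is not told. DSS is a polymer that injures the colon epithelium, and cycles of it are used as a model of chronic colitis, started here in mice 8 weeks old. Mucosa was scraped from the distal descending colon, so each sample mixes epithelium, stroma and immune cells, and fewer cells of a type cannot be told apart from less RNA per cell.

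S100A8 and S100A9 pair into calprotectin, an abundant protein of the neutrophil cytosol, which binds zinc and manganese and signals through TLR4. Its stool level is a clinical measure of gut inflammation. Neutrophils are made and mobilised under G-CSF, which acts on the receptor encoded by Csf3r. They sense bacterial formyl peptides through Fpr1 and Fpr2, and amplify or relay inflammatory signals through Trem1 and the lectin receptors Clec4d and Clec4e.

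Each value is a relative signal, the processed signal of a probe as a percent of the 75th percentile of its own array. That percentile ranged from 552 to 663 in filgotinib mice, from 570 to 667 in DSS vehicle mice and from 684 to 813 in water mice. Between 50.2% and 62.1% of the probes of an array were well above its background. The lowest relative signal of any probe well above background was between 2.58% and 6.96%, depending on the array. All 16 colon epithelium markers on the list for the labelled tissue passed the filter, and each array correlated with the mean of the rest of its group at r between 0.986 and 0.997 across genes. The arrays lay on 6 slides, and DSS vehicle mouse 3 and filgotinib mouse 3 were each alone on a slide scanned on a day of its own. Where a sentence gives an adjusted p, it is from limma over all genes, two-sided, after Benjamini-Hochberg adjustment, and "rose" and "fell" mean an adjusted p under 0.05.

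The probes are 60-base oligos, and their sequences show which of them hold letters that other probes also carry. Capitals mark a stretch of at least 20 bases that is also found in a probe for another gene. The probes of the calgranulins and both Fpr2 probes have no such stretch.
S100a8 probe: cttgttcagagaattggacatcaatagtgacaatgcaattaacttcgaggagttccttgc
S100a9 probe: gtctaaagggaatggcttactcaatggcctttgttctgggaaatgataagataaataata
Fpr2 probe read: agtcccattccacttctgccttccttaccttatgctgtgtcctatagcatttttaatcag
Fpr2 second probe: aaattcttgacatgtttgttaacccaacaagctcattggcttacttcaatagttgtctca
Csf3r probe: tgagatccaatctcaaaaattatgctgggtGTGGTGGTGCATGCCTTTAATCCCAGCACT
TC1653005 probe: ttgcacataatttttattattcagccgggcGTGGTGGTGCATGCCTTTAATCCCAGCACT
Trem1 probe read: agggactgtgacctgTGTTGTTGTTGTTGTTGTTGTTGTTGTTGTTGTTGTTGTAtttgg
Trem1 second probe: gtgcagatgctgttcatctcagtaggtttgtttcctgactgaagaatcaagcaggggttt
Fubp3 probe: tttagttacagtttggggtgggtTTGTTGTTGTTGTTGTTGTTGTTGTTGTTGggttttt

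Coordinates are those of the file headers in build mm9, and no annotation of that build was used here. The S100a8 probe lies at chr3:90473778-90473837 on the plus strand and the S100a9 probe at chr3:90496573-90496632 on the minus strand. The Csf3r probe lies at chr4:125721478-125721537 and the 2 Trem1 probes at chr17:48385230-48385289, the second probe, and chr17:48385849-48385908, the probe read, all on the plus strand. The Fpr2 probe read is at chr17:18030798-18030857 and the second at chr17:18030540-18030599, both on the plus strand. In the Csf3r probe, bases 31 to 60 belong to the letters of the mouse B1 repeat. All of them recur in a probe for TC1653005, and 20 of them in a probe for Gm1305. In the Trem1 probe read, bases 16 to 55 hold TGT repeated 13 times and a final A, and stretches of them recur in probes for 4 other genes. Among all 56504 probes, 4.02% share such a stretch with a probe for another gene.

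Of the 6 tested members, S100a9 differed most between DSS vehicle and water mice. In filgotinib mice 1 to 5 its relative signal was 2.47%, 20.2%, 1.64%, 5.91% and 14.9%. DSS vehicle mice 1 to 5 had 34.8%, 11.4%, 339%, 39.2% and 68.2%, and water mice 1 to 5 had 3.18%, 2.01%, 4.58%, 5.22% and 3.75%. Every DSS vehicle mouse lay above every water mouse, mouse 3 stood highest by far, and 3 of the 5 filgotinib mice lay below every DSS vehicle mouse. The probe was well above background in 2 filgotinib mice (2 and 5), all 5 DSS vehicle mice and 3 water mice (3, 4 and 5), so the low readings sit near the background.

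S100a9 rose 14.4-fold in DSS vehicle mice against water mice (95% interval 4.25 to 49.0, log2 3.85 ± 0.82 SE, adjusted p = 0.00608; exact permutation p = 0.00794, the smallest that 5 against 5 allows). It fell by 3.12 on the log2 scale (SE 0.82) in filgotinib mice against DSS vehicle mice, that is 8.69-fold lower, with an adjusted p of 0.028 and an exact permutation p of 0.0238. Against water mice the filgotinib mice were at 0.73 on the log2 scale (95% interval -1.03 to 2.50, adjusted p = 0.603). On the log2 scale the group means were -4.08 in filgotinib mice, -0.96 in DSS vehicle mice and -4.81 in water mice, with SDs of 1.58, 1.79 and 0.54.

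The rise also passed without the brightest mouse: leaving out DSS vehicle mouse 3 gave 3.17 on the log2 scale (adjusted p = 0.00974), a fold over 1.5 times smaller. The call of the fall under filgotinib was lost without DSS vehicle mouse 1 (adjusted p = 0.0501), without DSS vehicle mouse 5 (0.0598) and without filgotinib mouse 1 (0.0617). It held without DSS vehicle mouse 3, at -2.44 (adjusted p = 0.0396). With mouse 3 of both DSS groups left out it was -1.98 (adjusted p = 0.0616). The sizes also depended on the background correction: with normexp and quantile normalization the rise was 2.16 and the fall -1.82 on the log2 scale (adjusted p = 0.00936 and 0.0356), and with scan day as a block they were 3.09 and -2.11 (adjusted p = 0.00937 and 0.0634).

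S100a8 behaved differently on the same arrays. Its relative signal in filgotinib mice 1 to 5 was 2.64%, 7.2%, 2.37%, 6.99% and 1.52%. DSS vehicle mice 1 to 5 had 6.34%, 4.72%, 62.2%, 6.88% and 12.8%, and water mice 1 to 5 had 3.8%, 4.48%, 6.04%, 8.69% and 8.13%. DSS vehicle and water mice overlapped, with only DSS vehicle mice 3 and 5 above all water mice, and the probe was well above background in 2 filgotinib, 5 DSS vehicle and 5 water mice.

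The S100a8 difference between DSS vehicle and water mice was 1.86-fold and did not pass (log2 0.90 ± 0.63 SE, adjusted p = 0.335, 95% interval -0.45 to 2.25). Without DSS vehicle mouse 3 it was 0.27 on the log2 scale (adjusted p = 0.719). Filgotinib mice were at -1.68 ± 0.63 SE on the log2 scale against DSS vehicle mice, which did not pass either (adjusted p = 0.096; exact permutation p = 0.0794), and at -1.06 without DSS vehicle mouse 3 (adjusted p = 0.152). Against water mice they were at -0.78 (adjusted p = 0.444), with 3 of 5 filgotinib mice below every water mouse.

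**Figure D1:**
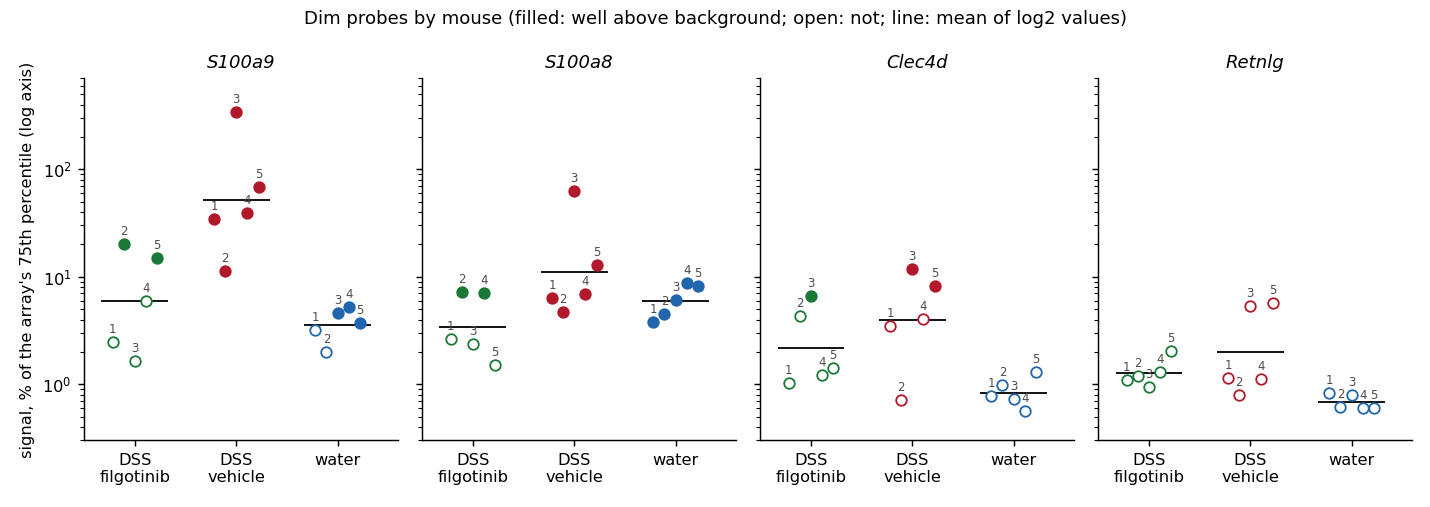
Relative signal (percent of the array's 75th percentile, log axis) of the S100a9, S100a8, Clec4d and Retnlg probes in each mouse, numbered 1 to 5, in filgotinib, DSS vehicle and water groups; filled points were well above background, open points were not, and lines are means of log2 values. For S100a9 all 5 DSS vehicle mice lie above all water mice, with mouse 3 at 339%, while for S100a8 the DSS vehicle and water mice overlap.

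The unequal change of the calgranulins can be read within each array. The log2 value of S100a9 minus that of S100a8 averaged 0.78 ± 1.61 in filgotinib mice, 2.22 ± 0.53 in DSS vehicle mice and -0.73 ± 0.41 in water mice (SD, n = 5 each). The change of S100a9 between DSS vehicle and water mice thus exceeded that of S100a8 by 2.95 on the log2 scale (exact two-sided permutation p = 0.00794 for this difference). The size of this gap is limited by background, since S100a8 was dim in most mice and S100a9 in water mice. With normexp and quantile normalization the changes were 2.16 for S100a9 and 0.45 for S100a8. In filgotinib mice each probe was well above background on only 2 of 5 arrays. Whether dim signal lowered the S100a8 change was not tested. Between filgotinib and DSS vehicle mice the difference of the changes was -1.44 (exact permutation p = 0.0873), and between filgotinib and water mice 1.52 (exact permutation p = 0.0317); these 3 tests share groups and are not adjusted for one another. Within the groups, the 2 genes' deviations from their group means correlated at r = 0.70 over 15 arrays, and at 0.46 without DSS vehicle mouse 3, as a description of these arrays.

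Fpr2 encodes a formyl peptide receptor that also binds serum amyloid A and annexin A1. The probe read gave relative signals of 17.9%, 24.0%, 21.8%, 20.3% and 14.4% in filgotinib mice 1 to 5, 18.8%, 22.8%, 29.7%, 27.9% and 25.7% in DSS vehicle mice. Water mice 1 to 5 gave 16.1%, 14.8%, 16.4%, 15.1% and 19.4%. In the DSS vehicle group 4 of 5 mice were above all water mice, and mouse 1 was within their range. Fpr2 rose 1.51-fold in DSS vehicle mice against water mice (log2 0.60 ± 0.15 SE, adjusted p = 0.0123; exact permutation p = 0.0159). Filgotinib mice were at -0.35 ± 0.15 SE against DSS vehicle mice (adjusted p = 0.134) and at 0.25 ± 0.15 SE against water mice (adjusted p = 0.276), neither of which passed. The second Fpr2 probe was not well above background on any array. Its close relative Fpr1 had 1 probe, also not well above background on any array, with relative signals between 0.612% and 2.09% over the 15 mice, so it has no fold change here.

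Trem1, a receptor that amplifies Toll-like receptor signals through the adaptor Tyrobp, has 2 probes that differ. The probe read, which carries the TGT repeat, gave 230%, 230%, 242%, 272% and 246% in filgotinib mice 1 to 5, 278%, 259%, 275%, 252% and 265% in DSS vehicle mice. Water mice 1 to 5 gave 246%, 231%, 213%, 227% and 201%. All DSS vehicle mice lay above all water mice, but by little, and filgotinib mice spread across both ranges. Trem1 rose 1.19-fold by this probe in DSS vehicle mice against water mice (log2 0.25 ± 0.07 SE, adjusted p = 0.0191; exact permutation p = 0.00794). Without water mouse 5 the call was lost (0.21, adjusted p = 0.0521). It was also lost with median scaling (0.21, adjusted p = 0.15) and with scan day as a block (0.22, adjusted p = 0.0556). The same held with slide as a block and on the arrays of scan day 1 alone. Trem1 differed by -0.13 between filgotinib and DSS vehicle mice (adjusted p = 0.237) and by 0.13 between filgotinib and water mice (adjusted p = 0.238).

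The 4 probes for other genes that carry part of the same repeat had log2 differences between 0.10 and 0.33 (median 0.21) in DSS vehicle against water mice and between -0.18 and -0.03 (median -0.11) in filgotinib against DSS vehicle mice. That of Fubp3, printed above, was 0.18 in DSS vehicle against water mice. The Trem1 changes of 0.25 and -0.13 lie within both ranges. The second Trem1 probe, whose letters no other probe shares, was not well above background on any array, with relative signals from 0.609% to 1.52%. The part of the shared repeat in the Trem1 call was not tested.

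Csf3r encodes the G-CSF receptor. Its relative signal in filgotinib mice 1 to 5 was 16126%, 15594%, 16682%, 14771% and 15691%. It was 18519%, 16987%, 17222%, 17085% and 17413% in DSS vehicle mice 1 to 5, and the 5 water mice gave 16247%, 15455%, 16807%, 14858% and 14588%. The DSS vehicle mice did not overlap either of the other groups, and the filgotinib and water ranges nearly coincided. The log2 difference was 0.16 ± 0.06 SE in DSS vehicle against water mice (adjusted p = 0.0583; exact permutation p = 0.00794) and -0.15 ± 0.06 SE in filgotinib against DSS vehicle mice (adjusted p = 0.109; exact permutation p = 0.00794), so neither passed over all genes. Without water mouse 3 the first passed (0.19, adjusted p = 0.0362), while it was 0.046 with quantile normalization (adjusted p = 0.7), 0.065 in the authors' deposited table (0.618) and 0.12 with median scaling (0.357). The difference between filgotinib and water mice was 0.02 (adjusted p = 0.877).

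For Csf3r the probes that share its last 30 bases in whole or in part moved by similar amounts. TC1653005, printed above, had a log2 difference of 0.24 in DSS vehicle against water mice and -0.15 in filgotinib against DSS vehicle mice. Gm1305, which shares 20 bases, had 0.18 and -0.18 in the same comparisons. The Csf3r probe lay between the 99.3 and 99.6 percentile of signal on every array. The median percentile over the arrays was 99.7 for TC1653005 and 97.1 for Gm1305. The Csf3r differences of 0.16 and -0.15 are thus close to those of probes for other transcripts that carry the same repeat letters, and how much of the Csf3r signal comes from Csf3r was not tested.

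Cd177, a glycoprotein that is anchored to the neutrophil membrane, was well above background on all 15 arrays without a detectable difference between groups. Its relative signal was 101%, 179%, 72.8%, 122% and 95.3% in filgotinib mice 1 to 5, 95.0%, 98.7%, 89.5%, 150% and 140% in DSS vehicle mice. Water mice 1 to 5 gave 62.0%, 177%, 59.0%, 101% and 115%. The spread between water mice alone covered most of the range. The log2 difference was 0.25 ± 0.30 SE in DSS vehicle against water mice (adjusted p = 0.599, 95% interval -0.40 to 0.89), -0.04 in filgotinib against DSS vehicle mice (adjusted p = 0.945, 95% interval -0.69 to 0.60), a sign that turned under median scaling, and 0.20 in filgotinib against water mice (adjusted p = 0.7).

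**Figure D2:**
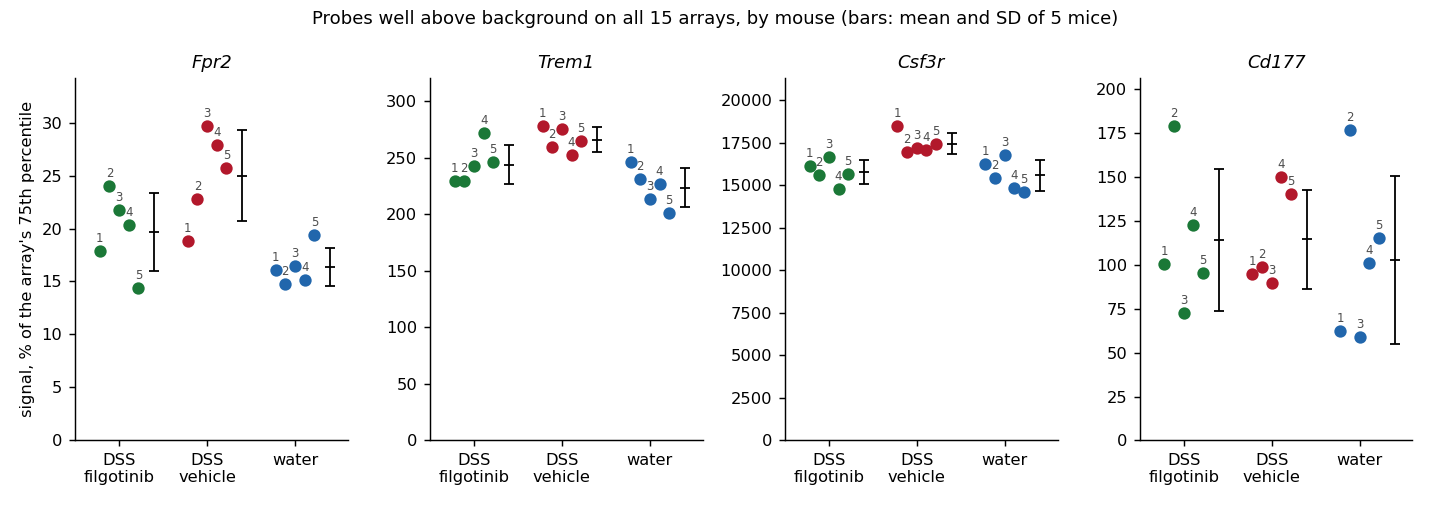
Relative signal (percent of the array's 75th percentile) of the Fpr2, Trem1, Csf3r and Cd177 probes that were well above background on all 15 arrays, for each numbered mouse of the filgotinib, DSS vehicle and water groups; bars are the mean and SD of 5 mice. Trem1 and Csf3r of all DSS vehicle mice lie above those of all water mice by a small margin, and the Cd177 groups overlap.

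Clec4d and Clec4e encode the lectin receptors MCL and Mincle, which bind microbial glycolipids and signal through the adaptor Fcer1g. Clec4d read 1.03%, 4.32%, 6.63%, 1.21% and 1.40% in filgotinib mice 1 to 5, 3.48%, 0.718%, 11.7%, 4.01% and 8.26% in DSS vehicle mice. Water mice 1 to 5 gave 0.775%, 0.993%, 0.722%, 0.563% and 1.31%. Signal well above background was seen in filgotinib mouse 3 and DSS vehicle mice 3 and 5, and in no water mouse. Against the background bound of the water group, the mean Clec4d reading of DSS vehicle mice was 1.33-fold higher. That mean includes arrays not well above background, as only 2 of 5 were, so 1.33 is not a lower limit. Clec4d was too dim for the fit over genes. When each probe was tested without a filter its adjusted p was 0.0562. Most readings behind that value were not well above background, so it cannot show whether Clec4d differed. Clec4e was not well above background on any array, with relative signals between 0.512% and 2.55%.

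Retnlg, which in the mouse encodes a resistin-like protein of bone marrow and granulocytes, was also not well above background on any array. It read 1.09%, 1.19%, 0.937%, 1.29% and 2.02% in filgotinib mice 1 to 5, 1.13%, 0.802%, 5.37%, 1.12% and 5.71% in DSS vehicle mice. Water mice 1 to 5 read 0.826%, 0.61%, 0.801%, 0.603% and 0.598%. DSS vehicle mice 3 and 5, the highest here, were also the highest of their group for S100a9, S100a8 and Clec4d. No fold is given for Retnlg, Clec4e or Fpr1.

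Over the 6 tested members, 3 rose and 0 fell in DSS vehicle against water mice (S100a9, Fpr2 and Trem1), where 10.8% of all 22012 genes rose and 8.41% fell. That split of all genes was 2369 higher and 1851 lower, and 956 higher and 1566 lower with arrays scaled by their median. The groups did not overlap for 3 members, S100a9, Trem1 and Csf3r, all higher in DSS vehicle mice, as for 9.84% of all genes. The Trem1 and Csf3r probes carry repeat letters shared with probes for other genes, which moved by similar amounts. How much of their signal comes from Trem1 and Csf3r was not tested. The median log2 fold change of the 6 was 0.43, against 0.05 over all genes. These counts leave out the 4 members that were too dim to be tested.

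In filgotinib against DSS vehicle mice, 1 of the 6 fell (S100a9) and 0 rose, where 4.53% of all genes fell and 6.79% rose. All 6 differences were negative, with a median of -0.25 against 0.00 over all genes. Only Csf3r had no overlap between these groups, lower in filgotinib mice as for 3.12% of all genes. The limit of the Csf3r probe holds here too. In filgotinib against water mice, limma called 0 of the 6, where it called 9.83% of all genes. There, 0 members had an unadjusted p under 0.05 and 0 an exact permutation p under 0.05. The comparisons share the DSS vehicle or the water arrays, so their values are set side by side and are not independent.

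**Figure D3:**
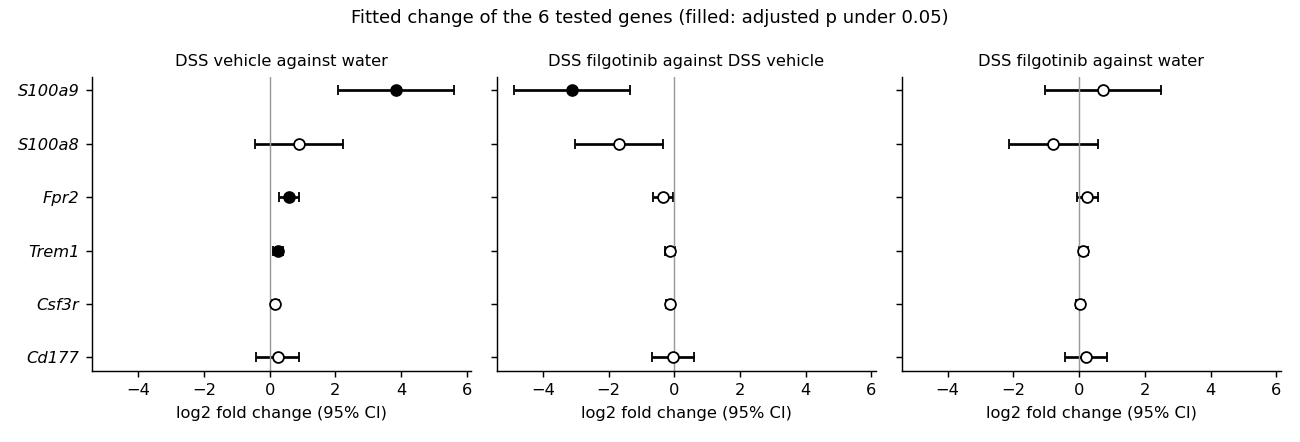
Fitted log2 fold change with its 95% interval for the 6 tested genes in DSS vehicle against water, filgotinib against DSS vehicle and filgotinib against water mice (n = 5 per group); filled points had an adjusted p under 0.05. S100a9 moves by 3.85 and -3.12 in the first and second panels, and every other tested gene by less than 2.

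The slide of an array limits all of these comparisons. Slide 1 held only water mice and slide 3 only filgotinib mice, and no slide held both of these groups. A fit with the slide as a block thus rests on slides 2 and 4 alone. A call lost there does not show that a member did not differ. With the slide as a block, 0 members were called in any comparison, and only 84, 437 and 2 genes of 22012 were called in DSS vehicle against water, filgotinib against DSS vehicle and filgotinib against water mice. Slide 4 held 1 DSS vehicle mouse and 2 water mice, and its log2 differences were 1.45 for S100a9, -0.57 for S100a8, 0.35 for Fpr2, 0.32 for Trem1 and 0.12 for Csf3r. Slide 2 held 2 filgotinib and 3 DSS vehicle mice, and there they were -2.68 for S100a9, -0.92 for S100a8, -0.20 for Fpr2, -0.21 for Trem1 and -0.16 for Csf3r. On the 10 arrays of the first scan day S100a9 differed by 3.82 between DSS vehicle and water mice and by -2.48 between filgotinib and DSS vehicle mice. Over the settings other than leaving out a single array, the adjusted p of S100a9 ran from 0.00503 to 0.58 in DSS vehicle against water mice and from 0.0249 to 0.0931 in filgotinib against DSS vehicle mice.

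Other genes of neutrophils were read from a list of 50, of which 34 were tested. In DSS vehicle against water mice 11 rose and 0 fell, where 10.8% of all genes rose, and the median over the 34 was 0.64 on the log2 scale against 0.05 over all genes. The largest were Lrg1, a secreted glycoprotein of neutrophil granules and liver, at 2.45 (adjusted p = 0.0105), Lcn2, which binds bacterial siderophores, at 1.76 (adjusted p = 0.00863), Ltf, the iron-binding lactoferrin, at 1.66 (adjusted p = 0.0123), and Hdc, which makes histamine, at 1.46 (adjusted p = 0.000467). In filgotinib against DSS vehicle mice 1 of the 34 fell, Hdc at -0.82 (adjusted p = 0.02), 0 rose, and the median was -0.29, where 4.53% of all genes fell. Hdc is also made by mast cells and Lcn2 also made by colon epithelium.

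Of the 50 genes, 8 were well above background on no array, among them Prtn3, Ngp, Cxcr1, Cxcr2 and Chil3, and 7 passed on 1 to 4 arrays. The summed relative signal of the 34 tested genes ranged from 19231% to 26742% in filgotinib mice, 21592% to 27017% in DSS vehicle mice and 17889% to 22539% in water mice. The mean log2 value of the 34 genes lay between -1.56 and -0.38 in every mouse. The sum is thus set mostly by its brightest genes and does not measure neutrophil content. Ly6g, a surface marker of mouse neutrophils, rose by 0.60 on the log2 scale in DSS vehicle against water mice (adjusted p = 0.0393). Ly6g has close relatives whose transcripts its probe may also bind.

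Ligands and partners of the members included the strongest changes near them. Of 22 tested genes of that list, 10 rose and 0 fell in DSS vehicle against water mice (over all genes 10.8% and 8.41%). In filgotinib against DSS vehicle mice 0 rose and 5 fell, where 6.79% of all genes rose and 4.53% fell. Pglyrp1, Camp, Itgam and Itgb2 are also listed among the other neutrophil genes, so the counts of these lists are not separate. Saa3, an acute-phase protein whose family binds Fpr2, rose by 3.96 (adjusted p = 0.000422) in DSS vehicle against water mice and fell by 3.41 (adjusted p = 0.00252) in filgotinib against DSS vehicle mice. Cxcl5, a chemokine that draws neutrophils through Cxcr2, was at least 6.8-fold higher in DSS vehicle mice than in water mice, none of which had signal well above background. Its adjusted p of 1.15e-05 is from the fit on the readings as measured, those of water mice included, and does not test this bound.

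Socs3, a feedback inhibitor of G-CSF receptor and other STAT3 signals, rose by 2.37 (adjusted p = 0.000193) in DSS vehicle against water mice and fell by 1.58 (adjusted p = 0.00489) in filgotinib against DSS vehicle mice. Il1b, the cytokine interleukin 1 beta, rose by 2.22 (adjusted p = 0.00981) in DSS vehicle against water mice, and its difference of -1.49 in filgotinib against DSS vehicle mice did not pass (adjusted p = 0.0758). The G-CSF gene Csf3 was not well above background on any array, nor were Il6, Il17a and Cxcl2.

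Among 12 tested adaptors and kinases downstream of Trem1, Clec4d and Clec4e, 3 rose and 1 fell in DSS vehicle against water mice. Syk, the kinase they share, rose by 0.82 (adjusted p = 0.00948), Hcst rose by 0.44 and Lyn by 0.34, while Vav1 fell by 0.64 (adjusted p = 0.00569). The adaptors Tyrobp and Fcer1g were at 1.06 and 1.20 without passing (adjusted p = 0.0879 and 0.0579). In filgotinib against DSS vehicle mice 1 of the 12 rose, Vav1 at 0.48 (adjusted p = 0.0366), and 0 fell. Over all genes, 10.8% rose and 8.41% fell in the first of these comparisons, and 6.79% rose and 4.53% fell in the second.

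Lectin receptors encoded near Clec4d and Clec4e or related to them could be tested for 6 of 16 genes. Of these, 5 rose and 0 fell in DSS vehicle against water mice, where 10.8% of all genes rose and 8.41% fell. Clec7a, the beta-glucan receptor Dectin-1, rose by 2.78 (adjusted p = 0.00386), and it fell by 2.12 in filgotinib against DSS vehicle mice (adjusted p = 0.0251), the 1 call among the 6. Clec4n, the fungal mannan receptor Dectin-2, rose by 1.76 (adjusted p = 0.0446) and Clec4b1 by 1.44 (adjusted p = 0.0401) in DSS vehicle against water mice. Dectin receptors are also found on macrophages and dendritic cells.

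Of the other S100 genes, 2 of 12 rose and 0 fell in DSS vehicle against water mice, where 10.8% of all genes rose and 8.41% fell. These were S100a4 by 1.33 (adjusted p = 0.0368) and S100a6 by 0.23 (adjusted p = 0.0393). In filgotinib against DSS vehicle mice 0 of 12 were called, where 6.79% of all genes rose and 4.53% fell. The resistin-like gene Retnlb, a goblet cell product, rose by 1.94 (adjusted p = 0.0051) in DSS vehicle against water mice and fell by 2.09 (adjusted p = 0.0062) in filgotinib against DSS vehicle mice. Of 4 tested genes of the TREM family 0 were called in any comparison, and of 6 other formyl peptide receptors 0 could be tested. Among Ly6 and uPAR domain genes 4 of 5 rose in DSS vehicle against water mice, with Ly6c2 at 1.21, Ly6c1 at 1.18 and Plaur, the urokinase receptor, at 0.89; the near-identical Ly6c genes may share signal.

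**Figure D4:**
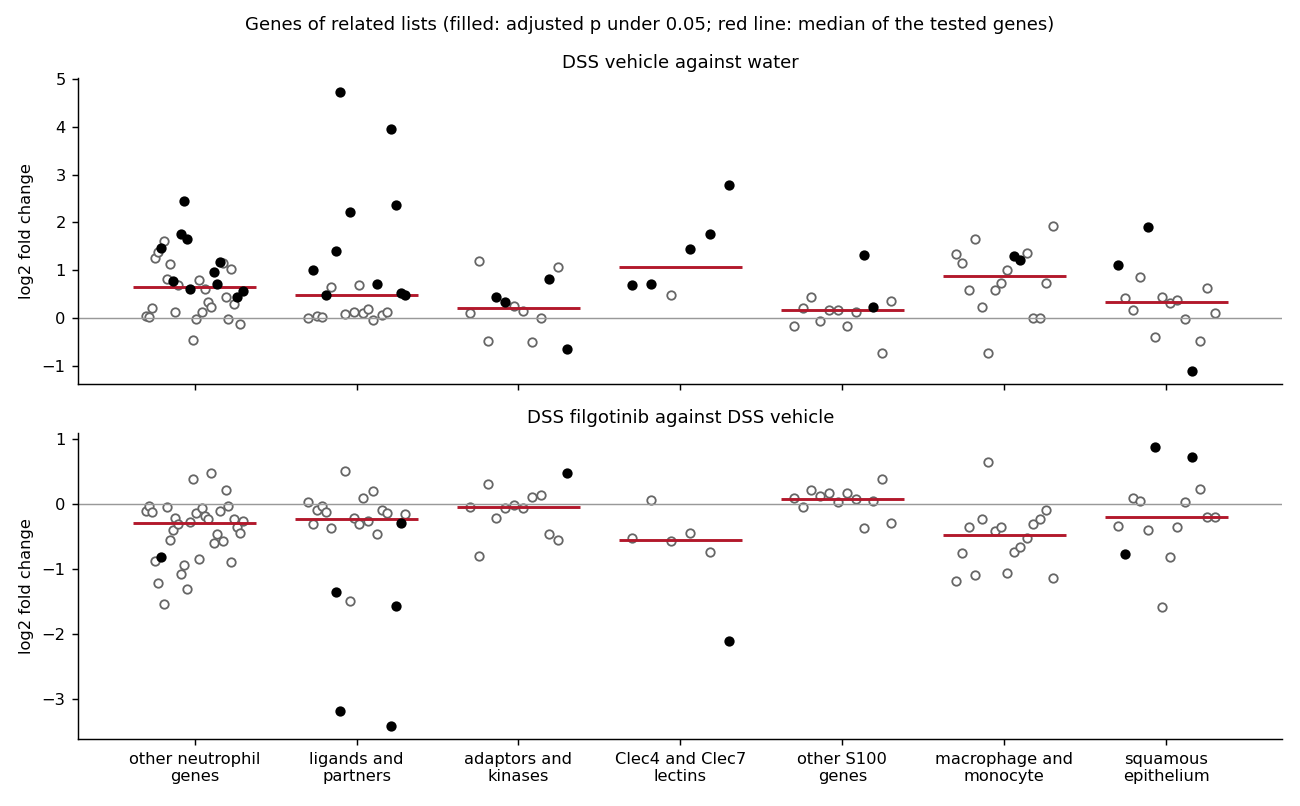
Log2 fold change of the tested genes of 7 lists in DSS vehicle against water mice (top) and filgotinib against DSS vehicle mice (bottom); filled points had an adjusted p under 0.05 and red lines are medians of the tested genes. In the top panel 11 of 34 other neutrophil genes and 10 of 22 ligands and partners are filled above 0, and in the bottom panel 1 and 5 of them are filled below 0. Pglyrp1 is counted in both lists in the top panel.

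Markers of other cell types were read on the same arrays. Of 16 tested macrophage and monocyte genes, 2 rose and 0 fell in DSS vehicle against water mice, where 10.8% of all genes rose and 8.41% fell, with a median of 0.88. Their summed relative signal ranged from 9404% to 23902% in filgotinib mice, 17525% to 23256% in DSS vehicle mice and 7955% to 10862% in water mice. Of that list, Fcgr1 and Vsig4 were well above background on no array. In filgotinib against DSS vehicle mice 0 of the 16 were called, with a median of -0.47.

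Of 14 tested squamous epithelium genes, 2 rose (Krt14 by 1.90 and Dsg3 by 1.12) and 1 fell (Lor by 1.09) in DSS vehicle against water mice. Of all genes, 10.8% rose and 8.41% fell there. In filgotinib against DSS vehicle mice 2 of the 14 rose and 1 fell, where 6.79% of all genes rose and 4.53% fell. The sum of the 14 ranged from 1540% to 2023% in filgotinib mice, 1616% to 2059% in DSS vehicle mice and 1462% to 1730% in water mice. Of the listed genes, 5 (Krt4, Sprr3, Ivl, Dsg1a and Calml3) were well above background on no array. DSS vehicle mouse 3, the highest for S100a9, had the highest Krt14 at 538% but a low Krt5 at 4.21%, against 97.9% in DSS vehicle mouse 1. Of 6 tested red cell and platelet genes and 8 smooth muscle genes 0 were called in any comparison. All 8 smooth muscle genes were nevertheless higher in DSS vehicle than in water mice, with a median of 1.24 on the log2 scale. All 8 were also higher in filgotinib than in water mice, with a median of 0.88. The mean log2 value of the 8 genes in DSS vehicle mice 1 to 5 was 2.75, -0.97, -0.47, 0.55 and 1.46. Water mice ranged from -1.04 to 0.09, so DSS vehicle mice 2 and 3 lay within their range. The summed relative signal of the 8 genes ranged from 2804% to 5112% in filgotinib mice, 3364% to 10489% in DSS vehicle mice and 2637% to 3471% in water mice. The muscle content of the scrapings may thus have differed between mice, which was not tested. Of the 16 colon epithelium genes 9 rose in DSS vehicle against water mice and 0 were called in filgotinib against DSS vehicle mice.

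Mast cell genes were called in both directions. Of 8 tested, 3 rose and 1 fell in DSS vehicle against water mice, where 10.8% of all genes rose and 8.41% fell. In filgotinib against DSS vehicle mice 1 rose and 3 fell, where 6.79% of all genes rose and 4.53% fell. The proteases Mcpt1 and Mcpt4, made by mast cells of the mucosa and connective tissue, rose by 4.52 and 4.39 in DSS vehicle against water mice (adjusted p = 1.08e-05 for both) and fell by 2.04 and 2.00 in filgotinib against DSS vehicle mice (adjusted p = 0.005 and 0.00473). Mcpt2 was at least 3.56-fold higher in DSS vehicle mice than in water mice, none of which had signal well above background. The adjusted p of Mcpt2, 7.3e-06, is likewise from the fit on the readings as measured and does not test this bound. Cma1 went the other way, at -0.92 in DSS vehicle against water mice and 1.66 in filgotinib against DSS vehicle mice (adjusted p = 0.0289 and 0.00295).

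The summed relative signal of the 8 mast cell genes ranged from 476% to 633% in filgotinib mice, 502% to 557% in DSS vehicle mice and 357% to 445% in water mice, and Tpsab1 and Ms4a2 were well above background on no array. Of 3 tested eosinophil genes, 0 rose and 2 fell in DSS vehicle against water mice, where 10.8% of all genes rose and 8.41% fell. These were Siglecf, by 1.34 (adjusted p = 0.00139), and Alox15. Siglecf alone was called in filgotinib against DSS vehicle mice, 2.15-fold higher (adjusted p = 0.00746), where 6.79% of all genes rose. The sum of the 3 ranged from 26.0% to 45.5% in filgotinib mice, 18% to 23.6% in DSS vehicle mice and 35.7% to 52.0% in water mice. Prg2, Epx and Ear1 were well above background on no array. The part of all these cells in the values of the members and of Hdc was not tested.

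The genes most like S100a9 in their deviations from the group means over the 15 arrays were Fancf (r = 0.87), Zfp810 (0.84), Thumpd2 (0.83), Ddhd2 (0.83) and Gm9856 (0.83), with S100a8 at rank 57 of 22011. For S100a8 they were Arc (r = 0.87), Gm16283 (0.86), Tnfrsf23 (0.85), H2az1 (0.85) and Mphosph9 (0.85). Among the members, S100a9 (r = 0.70) and Fpr2 (0.64) were the most like S100a8. Without DSS vehicle mouse 3 the order was another, with Fpr2 at 0.60, Cd177 at 0.49 and S100a9 at 0.46. With 15 arrays and so many genes, such values describe these arrays and carry no test.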

How the data were processed

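RNA of scraped colon mucosa was labelled with cyanine 3 and hybridised to 1-colour Agilent arrays, 1 mouse each, per the labels' protocols. The deposited scanner files hold the intensity of each spot after background subtraction by Agilent Feature Extraction 11.5.1.1, per the file headers, with no adjustment between arrays. A deposited table of log2 values of 32349 probes was used as an alternative; the authors' normalization behind it is not given in the sources used here, and the submitters' processing notes name limma. Control spots and outlier-marked spots were left out, which removed 101 probes, and 56504 remained. Here, processed signals were divided by the 75th percentile of their array and put on the log2 scale. A gene was represented by its brightest probe among those well above background on at least 5 of 15 arrays. Groups were compared in 1 fit over all arrays with limma 3.58.1 in R 4.3.3, with Benjamini-Hochberg adjustment over 22012 genes, and single members also by exact two-sided permutation over mice. A group with no array well above background has only an upper bound. This is the mean, over its arrays, of the signal of the dimmest probe well above background, or of the probe itself where that is brighter. Folds against it read at least N-fold, except that of Clec4d, whose DSS vehicle mean includes arrays not well above background. Named genes were all 10 members, the 5 other genes most like S100a9 and S100a8, and the 2 to 4 called genes of a list with the largest change in DSS vehicle against water, with others named where a count needed them. The members and lists were chosen with earlier results of these data known, and the lists come from general knowledge. Probes were matched to each other for shared stretches of at least 20 bases. The code was tested on simulated data. Alternatives were scalings, background correction, filters, probes, batches and leaving out arrays. Replicate numbers were not used to pair the mice in the main fit. Same-numbered mice correlated in their deviations from the group means at r between -0.52 and 0.53, which cannot settle whether they were paired. Python 3.11.15 with pandas 2.3.3, numpy 2.4.6 and matplotlib 3.10.9 made the other tables and the plots.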

Additional observations from a re-analysis of the deposited data

Results flagged for a closer look

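In DSS vehicle mouse 3 the relative signal of S100a8 was 62.2% and that of S100a9 was 339%, each set apart from the other 4 mice of its group by more than Dixon's limit for 5 values (gap over range 0.86 and 0.826, limit 0.71) on the linear scale, though not on the log2 scale that the fit used. In DSS vehicle mouse 1 the relative signal of Csf3r was 18519%, apart from its group by the same rule on both scales (gap over range 0.713 on the log2 scale). Of 21 sets of 5 mice looked at, chance would set apart about 1 in 20 on either scale alone if values there were normally distributed. Both scales were looked at, so the share set apart by chance can be larger.

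Clec4d, too dim to enter the comparisons, was well above background in DSS vehicle mouse 3 (11.7%), DSS vehicle mouse 5 (8.26%) and filgotinib mouse 3 (6.63%), and in no water mouse, whose highest reading was 1.31%. DSS vehicle mouse 3 and filgotinib mouse 3 were each alone on a slide and scan day, and the part of the slide in their values was not tested.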

How the results depend on the processing

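In DSS vehicle against water mice the count of members called was 3, 2 with median scaling or scan day as a block, 1 on the arrays of scan day 1, a setting chosen after seeing the data, 0 with slide as a block, and 2 to 4 when single arrays were left out. In filgotinib against DSS vehicle mice it was 1. The deposited log2 table, quantile normalization and normexp with quantile normalization each gave 2, where Csf3r joined S100a9 at -0.30, -0.26 and -0.29. It was 0 with no filter, slide or scan day as a block, the replicate block, only the 2 groups' arrays, scan day 1, and without mouse 3 of both DSS groups, also chosen after seeing the data, and 0 to 1 without single arrays. In filgotinib against water mice it was 0, and 2 with no filter on dim probes (Clec4e and Fpr1, neither of them well above background on any array), and 0 without any single array. The replicate block changed no other call. Signs turned for S100a8 in DSS vehicle against water mice with slide as a block (-0.57), and for S100a9 in filgotinib against water mice with slide as a block (-1.23). The first of these values is the difference on slide 4 alone. The second joins those on slides 4 and 2, as no slide held both filgotinib and water mice. For Cd177 in filgotinib against DSS vehicle mice the value was 0.036 with median scaling, 0.092 with slide as a block, 0.02 without mouse 3 of both DSS groups and -0.22 to 0.10 without single arrays. For Csf3r in filgotinib against water mice it was -0.22 with quantile normalization, -0.19 with normexp, -0.24 in the deposited table, -0.038 with slide and -0.0082 with scan day as a block, -0.0029 without mouse 3 of both DSS groups, and -0.0059 to 0.045 without single arrays. The cause of these changes was not tested. With no filter, the median of all genes was at 0.15 in DSS vehicle against water and 0.16 in filgotinib against water mice. Over all genes the count of calls ran from 84 to 5856, from 437 to 3369 and from 2 to 9053 over the settings, in the order of comparisons above. The low signal of S100a9 and S100a8 in filgotinib and water mice limits how well their lowest values are known.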
